A study of Mus musculus with 98 samples.

Results

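The collagen genes of the thymic stroma were taken as all genes of the single-cell age series whose mouse symbol reads Col, a number, the letter a and a number, which gave 44 of 22231 genes. All 44 were also present in the newborn single-cell data and in the bulk data of sorted populations. The study asked which nonepithelial thymic stroma (NETS) cells make up the mouse thymus, how they change from the embryo to the young adult, and how they are altered in a mouse model of 22q11.2 deletion syndrome. Its 98 samples fall into 3 data sets. The age series has 8 libraries of wild-type (WT) thymi, made from live Ter119-CD45-EpCAM- cells, with 1 library each at embryonic days E12.5 and E13.5 and 2 libraries each at E16.5, the day of birth (P0) and 4 weeks. The newborn set has 3 libraries of Tbx1+/- Crkl+/- mice, which carry a lacZ allele of Tbx1 and a germline null allele of Crkl, and 3 of WT littermates, all at P0 and all from Ter119-CD45- cells pre-fixed with RNAprotect. The bulk set has 84 libraries of WT mice, 6 for each of 14 combinations of population and age (P0 or 4 weeks). Its NETS gates were CD31+ (endothelium), Ly51+gp38- (pericytes and VSM), gp38+CD26+ (capsular fibroblasts) and gp38+CD26- (mostly medullary fibroblasts), and its thymic epithelial cell (TEC) gates were cortical (cTEC), medullary (mTEC) and, at 4 weeks, mTEChi and mTEClo. Thymi of E12.5 and E13.5 were pooled from litters, so that these libraries are pools and not single animals. Per the study's methods, cells of E16.5, P0 and 4 weeks came from 2 thymi at each age, and each genotype of the newborn set from 3 mice. The labels do not tie single libraries to animals, nor do they say so for the bulk libraries, so the p-values measure the spread between libraries, which may in part be technical.

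Collagens are secreted or membrane-bound proteins that share a triple helix of 3 chains. Fibrillar collagens, such as types I, III and V, form the tension-bearing fibres of connective tissue, network-forming type IV builds the basement membranes beneath endothelium and epithelium and around mural cells, and type VI forms beaded filaments close to the cell surface. Fibril-associated collagens with interrupted triple helices (FACITs) decorate the fibres, multiplexins (types XV and XVIII) lie in basement membrane zones, and transmembrane collagens span the cell membrane. In the thymus, the capsule and septa hold fibrillar collagen, and vessels and the epithelium rest on basement membranes.

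The deposited labels place every cell in 1 of 19 subtypes: 7 of capsular fibroblasts (CapFb1a, 1b, 1c, 2a, 2b, 3 and 4), 4 of medullary fibroblasts (MedFb1a, 1b, 2a and 2b), arterial (EnA), capillary (EnC) and venous or lymphatic (EnVL) endothelium, mesothelium (Mes), neural crest cells (NC), pericytes (Pc), vascular smooth muscle (VSM) and proliferating cells (Pr). Levels are counts per 1000000 (CPM) of the UMIs, which are transcripts tagged by a unique molecular identifier, of a subtype in a library with at least 20 of its cells. Each captured transcript is counted once at its 3′ end whatever its length. How well each gene is captured was not tested. Shares and ratios between collagens therefore describe UMIs and may not reflect transcript numbers. Libraries of the age series held 28583048 to 93040640 UMIs, newborn libraries 4978011 to 31418527 and bulk libraries 5785352 to 15852166 gene counts, apart from 1 gp38+CD26+ library at 4 weeks with 25702 that was left out. Some cell barcodes occurred in more than 1 library, since the 36208 cells of the age series carried 36053 distinct barcodes and the 21451 cells of the newborn set 21407. Endothelial, mesothelial, neural crest, smooth muscle and fibroblast markers were each highest in the subtype that bears their name, and the pericyte list was higher in VSM (6069 CPM summed) than in Pc (4176 CPM). Haematopoietic markers summed to 3128 CPM in EnA and 3083 CPM in EnC. P0 replicate 1 of the age series stood apart in cartilage genes, which are described under the cartilage-type collagens. Counts of calls over all collagens and subtypes that use the P0 libraries are given with and without it. Counts over all collagens of a single subtype are given with it alone.

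Promoters are shown for 4 collagens on which the results below turn: Col1a2 and Col3a1, chains of the abundant fibrillar collagens that rose in some subtypes and fell in others with age, Col15a1, which rose in the most subtypes, and Col8a1, which rose from no read in a sorted population. Each is the 250 bases before the start of the gene from RefSeq (GRCm38.p6), written 5′ to 3′ along the gene, in lower case. Capitals mark 3 short motifs wherever they occur on either strand. CCAAT is the CAAT box, TATAAA is the TATA box, and the GC box GGGCGG reads CCGCCC on the other strand.
Col1a2, chr6:4505368-4505617, plus strand: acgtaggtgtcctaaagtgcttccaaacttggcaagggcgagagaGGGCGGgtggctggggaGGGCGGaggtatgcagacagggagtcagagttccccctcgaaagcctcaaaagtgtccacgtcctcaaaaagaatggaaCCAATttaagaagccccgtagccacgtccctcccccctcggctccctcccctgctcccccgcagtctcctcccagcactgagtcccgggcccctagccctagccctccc
Col3a1, chr1:45311288-45311537, plus strand: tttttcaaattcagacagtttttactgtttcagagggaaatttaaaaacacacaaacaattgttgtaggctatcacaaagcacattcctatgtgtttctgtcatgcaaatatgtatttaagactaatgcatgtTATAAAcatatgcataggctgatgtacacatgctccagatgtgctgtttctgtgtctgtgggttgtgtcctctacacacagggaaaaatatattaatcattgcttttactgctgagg
Col15a1, chr4:47207762-47208011, plus strand: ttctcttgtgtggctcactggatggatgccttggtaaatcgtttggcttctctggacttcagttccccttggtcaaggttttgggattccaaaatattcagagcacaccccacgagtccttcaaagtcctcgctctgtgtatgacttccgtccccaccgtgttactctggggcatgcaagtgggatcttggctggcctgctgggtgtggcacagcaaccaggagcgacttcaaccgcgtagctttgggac
Col8a1, chr16:57754738-57754987, minus strand: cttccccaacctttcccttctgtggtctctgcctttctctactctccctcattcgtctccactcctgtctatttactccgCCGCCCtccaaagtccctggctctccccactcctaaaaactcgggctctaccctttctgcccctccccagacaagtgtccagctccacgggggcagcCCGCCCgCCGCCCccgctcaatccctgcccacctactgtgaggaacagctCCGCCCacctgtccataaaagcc
The promoter table holds 35 of the 44 collagens in 38 windows. GGGCGG occurred in 57.9% of the collagen windows and 32.7% of all 32851 windows, CCAAT in 34.2% and 33.8%, and TATAAA in 13.2% and 12.4%. The Col8a1 window has 4 GGGCGG motifs and the Col15a1 window has none of the 3 motifs.

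Collagen transcripts were abundant in fibroblasts and scarce in endothelium and VSM. The means that follow are over the libraries with at least 20 cells of a subtype, so that they cover unlike ages, and CapFb4 lacks E12.5. In CapFb4 the 44 genes summed to 39992 ± 14485 CPM (SD, n = 7 libraries), in CapFb2a to 34972 ± 19251 CPM (n = 8) and in CapFb2b to 30560 ± 14706 CPM (n = 8). Capsular and medullary fibroblasts overlapped, with 18621 CPM in CapFb1b, 20862 CPM in MedFb2b, 19520 CPM in MedFb1b and 15933 CPM in MedFb2a. Pc held 9054 CPM, EnC 5033 ± 2019 CPM, VSM 4781 CPM and EnVL 3788 ± 988 CPM. The level varied with age. CapFb2a held 4606 CPM at E12.5, 10566 CPM at E13.5, 31514 and 32946 CPM at E16.5, 57724 and 53990 CPM at P0, and 46481 and 41946 CPM at 4 weeks. CapFb4 lay above it at E16.5, with 50767 and 52833 CPM, but below it at P0, with 49025 and 47950 CPM, and at 4 weeks, with 33627 and 33026 CPM. CapFb1a instead was highest at 4 weeks, with 3740, 8135, 25885, 25712, 33670, 27222, 42196 and 41736 CPM in the same order of libraries. The subtypes were clustered by the authors on these same counts, so levels are described between subtypes and not tested.

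**Figure D1:**
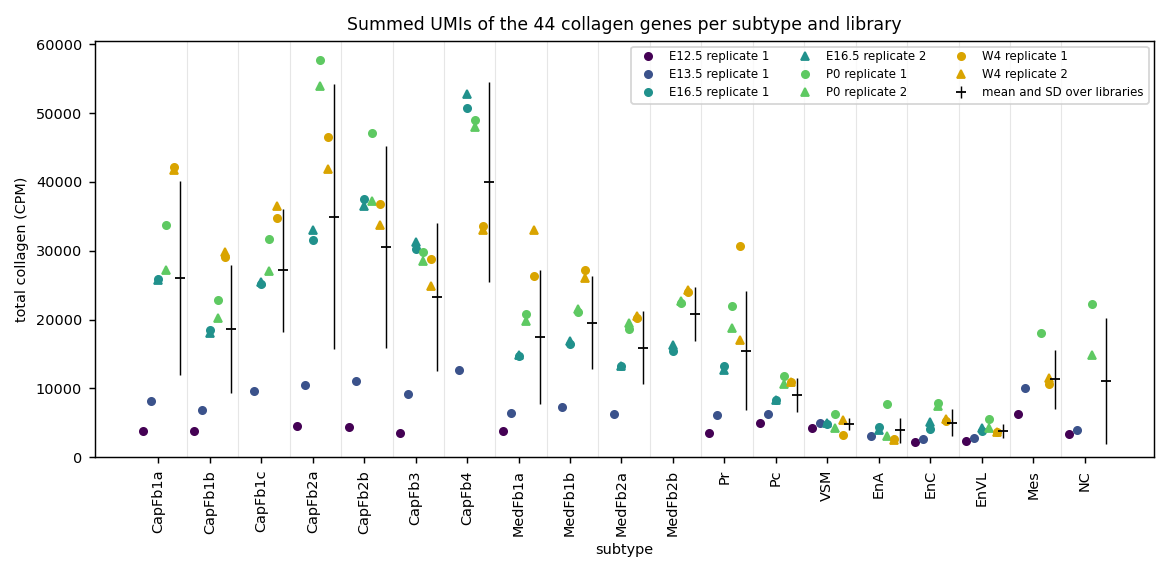
Summed level of the 44 collagens (y axis, CPM) in each of the 19 subtypes (x axis), with a point per library of the age series coloured by age. CapFb4 and CapFb2a have the highest means over the libraries each has, and the E12.5 and E13.5 libraries lie at the bottom of the fibroblast subtypes.

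The mix of collagen classes differed between subtypes. In CapFb4, fibrillar collagens made up 89.8% ± 2.2 of all collagen UMIs, and Col3a1, Col1a1 and Col1a2 alone 83.7%. In EnC they made up 20.1%, and network collagens, led by the type IV chains, 58.2% ± 7.3, against 1.12% in CapFb4. At P0 EnC held 514 and 509 CPM of Col1a1, along with 397 and 766 CPM of the fibroblast marker Dcn. Sorted CD31+ cells at P0 had only 937 Col1a1 reads over 6 bulk libraries, 618 of them in 1, where gp38+CD26- cells had 1219680. The part of fibroblast RNA in the endothelial subtypes was not tested. Beaded filament collagens took 28.3% ± 8.4 in MedFb2a, where Col3a1, Col6a1 and Col6a2 were the top 3 with 48.9%, but 5.19% in CapFb4. Multiplexins took 21.1% in EnVL, 16.2% in EnA and 14.96% in EnC. FACITs took 10.6% ± 2.3 in NC and at most 4.07% in any other subtype.

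By mean level over libraries, 21 of the 44 collagens were highest in a fibroblast subtype and 23 elsewhere. CapFb4, whose mean lacks E12.5, led for 7, which are the chains of fibres and of their surface: Col1a1 (9518 ± 3894 CPM), Col1a2 (9208 CPM), Col3a1 (15066 ± 5671 CPM), Col5a1 (761 CPM), Col5a2 (1115 CPM), Col5a3 (415 CPM) and the FACIT Col14a1 (1170 CPM). In the P0 and 4-week libraries Col1a1 was higher in CapFb2a than in CapFb4, by the values given below. MedFb1b led for Col15a1 (1086 ± 914 CPM), Col6a3 (644 CPM), Col26a1 (165.2 CPM) and Col7a1, the anchoring fibril collagen (10.4 CPM). MedFb2a and MedFb2b led for the other type VI chains, with Col6a1 at 1981 ± 346 CPM in MedFb2b, Col6a2 at 1824 CPM in MedFb2a and Col6a5 at 163.1 ± 130.3 CPM in MedFb2a. EnC led for Col4a1 (1854 ± 657 CPM), Col4a2 (1030 CPM) and the transmembrane collagen Col13a1 (25.1 CPM), and EnA for Col8a1 (202 ± 186.9 CPM), a network collagen known from vessel walls. Mesothelium led for the 4 type IV chains that are not part of the ubiquitous network: Col4a3 (8.66 CPM), Col4a4 (32.0 CPM), Col4a5 (75.4 ± 10.4 CPM) and Col4a6 (26.7 CPM). Its means lack E16.5 and P0 replicate 2, and Col4a3 stood at 6.57 CPM in CapFb1a. At 4 weeks alone CapFb1a led for Col4a3 and CapFb2a for Col4a5. NC led for 14 collagens, but only 4 libraries held at least 20 such cells, among them P0 replicate 1. In 43 of the 44 genes the library ranges of the top and the second subtype overlapped, the exception being the FACIT Col20a1, at 11.9, 11.5, 46.8 and 130.9 CPM in NC and 0 to 6.54 CPM in EnA. At 4 weeks alone the same subtype led for 13 of the 44 genes. NC had no 4-week library with at least 20 cells, so its 14 genes could not keep their leader there.

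**Figure D2:**
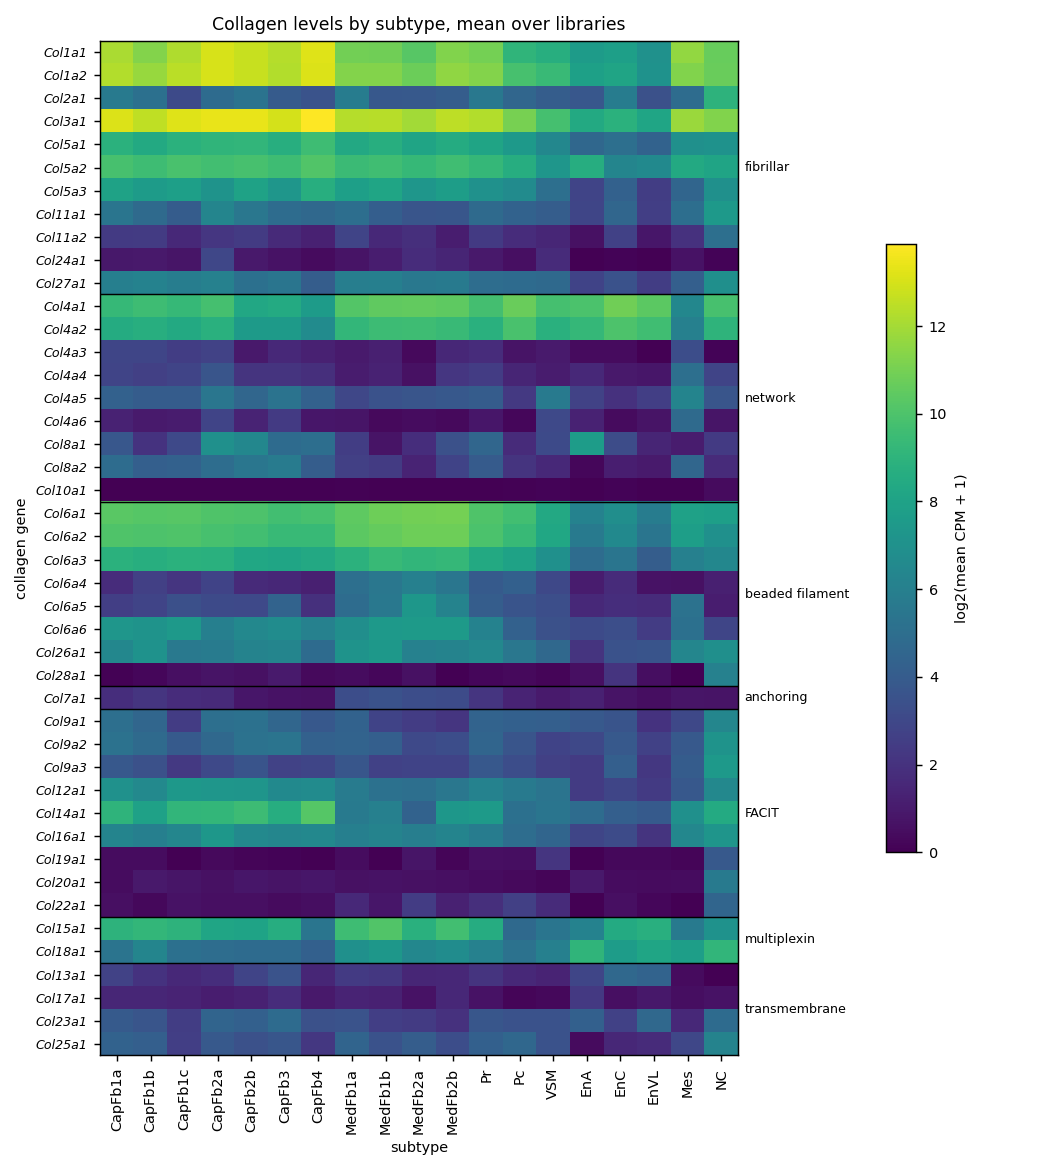
Mean level of each of the 44 collagens (rows, grouped by class) in each of the 19 subtypes (columns) as log2(CPM + 1) over the libraries of the age series. Col1a1, Col1a2 and Col3a1 are high in all fibroblast columns, and Col4a1 and Col4a2 are high in endothelium. Col4a3 to Col4a6 have their highest mean in mesothelium, where that of Col4a3 is near its mean in CapFb1a.

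Chains that assemble into the same molecule kept similar ratios across subtypes in type IV and type VI but not in types I and V. Col4a1 to Col4a2 UMIs stood at 1.46 (Mes) to 2.06 (MedFb1b). Col6a1 to Col6a2 stood at 1.05 to 1.41. Col1a1 to Col1a2 ran from 0.534 (VSM) to 1.42 (Mes), with 0.0587 to 1.09 between the libraries of NC, and Col5a1 to Col5a2 from 0.0613 (EnA) to 0.685 (CapFb4). Over the 19 subtype means, the gene most like Col1a1 was Col1a2 (Pearson r = 0.990) and that most like Col4a1 was Col4a2 (0.994). These correlations describe 19 points that share libraries and depth.

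From P0 to 4 weeks collagens changed in both directions. Of the pairs of a collagen and a subtype that could be tested in 17 subtypes, 335 of 591 passed (edgeR quasi-likelihood test, Benjamini-Hochberg adjusted p under 0.05 over all genes of the subtype), 23.5% of the 591 higher and 33.2% lower at 4 weeks, where all gene and subtype pairs gave 13.7% higher and 13.9% lower. The median log2 fold change of the collagen pairs was -0.21, and that of all genes lay between -0.08 and 0.01 by subtype. Without P0 replicate 1, 273 of 542 pairs passed, 25.1% of the 542 higher and 25.3% lower, with 13.1% and 13.4% of all pairs, and 253 pairs were called in both fits. A pair enters the test by a minimum count that the high group alone can supply, so a member that passed it only through that group had to differ. By subtype, 9 of 41 collagens passed in Pr (10.8% of all genes of the subtype), 9 of 32 in EnC (20.4%), 11 of 39 in VSM (22.6%), 31 of 37 in MedFb2a (43.5%), 27 of 36 in MedFb1b (46.8%) and 28 of 38 in CapFb2b (30.02%). In EnVL, 15 of 27 passed (14.6%), in CapFb2a 23 of 38 (19.5%) and in CapFb3 20 of 36 (19.1%). These counts by subtype use all libraries, and those of endothelium lean on P0 replicate 1. Over the 3 endothelial subtypes the median log2 fold change of the collagen pairs was -2.19 with it and -0.90 without it. Without 4-week replicate 2, 217 pairs passed.

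**Figure D3:**
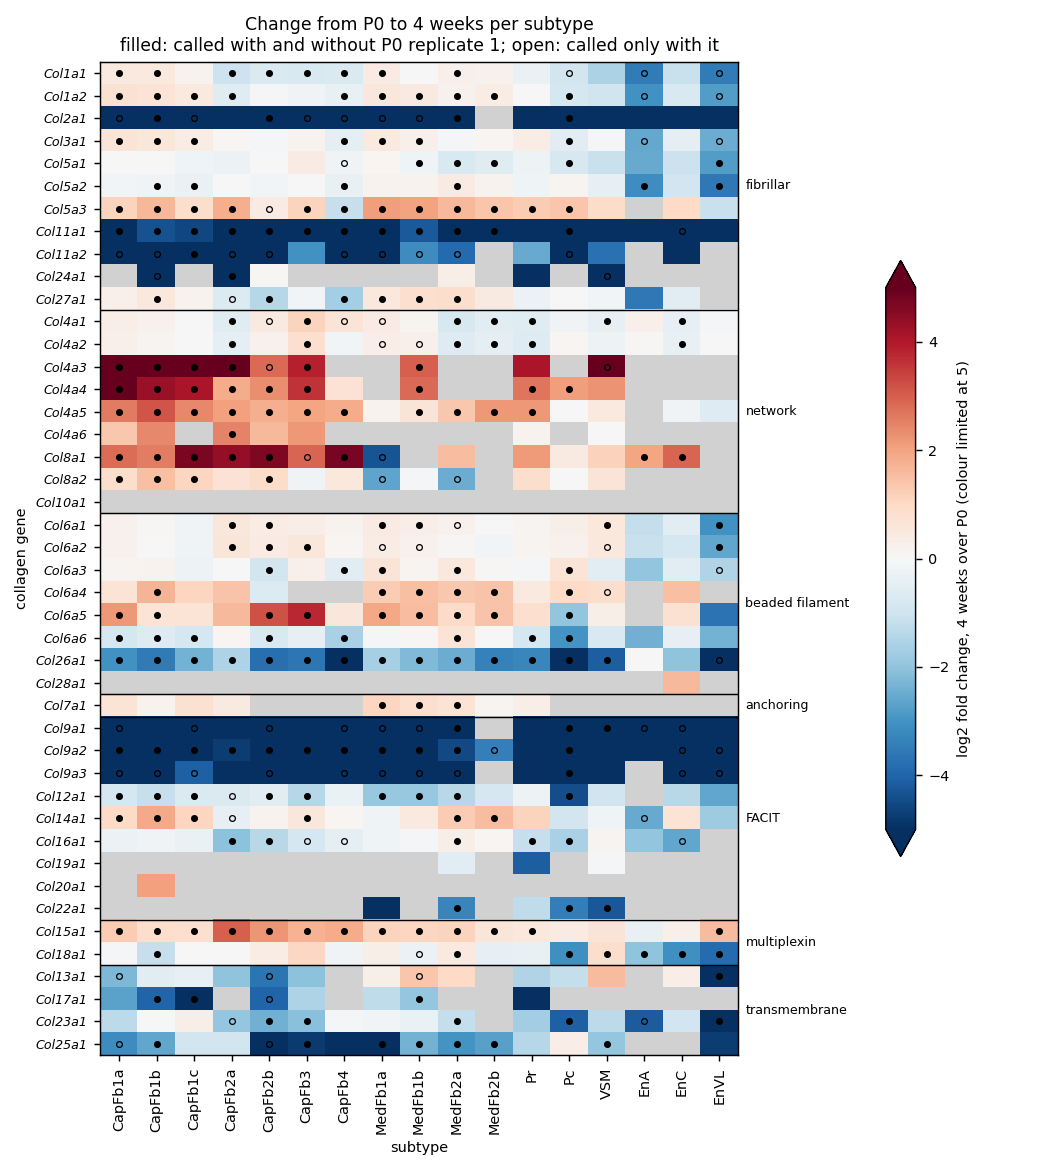
Log2 fold change from P0 to 4 weeks (colour, limited at 5) of each collagen (rows) in each of the 17 tested subtypes (columns) of the age series. Filled dots mark pairs called in the same direction with and without P0 replicate 1, open dots pairs called with all libraries alone and grey cells pairs not tested; the fibroblast columns carry the rise of Col15a1 and the fall of Col26a1.

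Among the fibrillar collagens, Col1a1 and Col3a1, chains of the abundant types I and III, moved in opposite directions in different fibroblasts. Col1a1 rose in 4 subtypes (CapFb1a, CapFb1b, MedFb1a and MedFb2a) and fell in 7 (CapFb2a, CapFb2b, CapFb3, CapFb4, EnA, EnVL and Pc), and without P0 replicate 1 in 6 and 4. In CapFb2a its level was 17225 and 15625 CPM at P0 and 8555 and 7224 CPM at 4 weeks, after 7828 and 8250 CPM at E16.5. The 4-week libraries lay below both P0 libraries (log2 fold change -1.04 ± 0.10 (SE), edgeR adjusted p = 8.4e-05). In CapFb4 it went from 11808 and 11732 CPM to 6619 and 6622 CPM (-0.74 ± 0.04, adjusted p = 1.6e-13), and in CapFb1b from 3138 and 2435 CPM to 3814 and 4181 CPM (0.50 ± 0.10, adjusted p = 0.0012). Col3a1, the type III chain of more pliant fibres, rose in 5 subtypes and fell in 4, and without P0 replicate 1 in 5 and 2. It fell in CapFb4 from 19086 and 18613 CPM to 12886 and 12493 CPM (-0.48 ± 0.04, adjusted p = 2.5e-10) and rose in CapFb1b from 7150 and 6025 CPM to 9617 and 10024 CPM (0.56 ± 0.07, adjusted p = 4.6e-05). The difference between subtypes was not tested.

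Col5a3, a minor chain of type V collagen named here after its values were seen, rose in 12 of 16 subtypes and fell in 1, and without P0 replicate 1 in 11 of 15 and 1. In MedFb1b it went from 163.1 and 160.4 CPM at P0 to 701 and 633 CPM at 4 weeks, far outside the P0 values (2.01 ± 0.08, adjusted p = 1.2e-10). In CapFb4, the subtype in which it fell, it went from 425 and 458 CPM to 233 and 145 CPM (-1.16 ± 0.13, adjusted p = 2.1e-07), having stood at 777 and 829 CPM at E16.5. Col5a1, which starts fibril assembly with type I collagen, fell in 6 subtypes, or 5 without P0 replicate 1, and rose in none. Col11a1, a chain that pairs with type II collagen in cartilage and with type V elsewhere, fell in 13 of 17 subtypes and in 11 of 11 of the fibroblasts, and without P0 replicate 1 in 14 of 14. In CapFb2a it held 111, 95.8, 70.1, 105, 148.9 and 98.5 CPM in the libraries from E12.5 to P0 and 4.80 and 3.03 CPM at 4 weeks (-5.06 ± 0.41, adjusted p = 2e-05). In CapFb3 it stood at 48.95 and 4.57 CPM at P0 and no UMI of it was left at 4 weeks, which makes it at least 40.9-fold lower against a floor of 3 UMIs over the group, but at least 6.999-fold lower without P0 replicate 1.

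Over all subtypes 49 network pairs rose and 14 fell of 104, and 44 rose, 13 fell and 46 did not pass without P0 replicate 1. Of all gene and subtype pairs 13.7% rose and 13.9% fell, and 13.1% and 13.4% without that library. In fibroblasts 43 network pairs rose and 9 fell of 72, or 38 and 6 of 73 without P0 replicate 1. Of all genes, 19.1% (CapFb3) to 46.8% (MedFb1b) changed in either direction in the fibroblast subtypes. These counts include pairs that entered the test through the 4-week libraries alone, so they are given as a description. Col4a5, the X-linked chain, rose in 11 of 16 subtypes with or without P0 replicate 1, whereas Col4a1 rose in 4 and fell in 6, or 1 and 7 without it. Col4a3 and Col4a4 were named after their values were seen, and their pairs in CapFb1a passed the minimum count through the 4-week libraries, so only levels are given. In CapFb1a, Col4a3 stood at no more than 0.475 CPM in any library from E12.5 to P0 and at 26.8 and 24.3 CPM at 4 weeks. Col4a4 stood there at no more than 0.700 CPM before and at 23.6 and 23.2 CPM at 4 weeks. Both rested on so few UMIs at P0 that no fold is given. In CapFb1b, Col4a5 fell from 17.3 and 21.9 CPM at E12.5 and E13.5 to 2.78 and 2.82 CPM at E16.5, with 5.81 and 2.62 CPM at P0 and 23.7 and 47.2 CPM at 4 weeks (3.15 ± 0.35, adjusted p = 1.6e-05), and the estimate was 3.78 without P0 replicate 1 and 2.47 without 4-week replicate 2. In Mes it lay between 61.8 and 88.1 CPM in all 5 libraries.

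Col8a1, whose chain forms short hexagonal networks, rose in 9 of 14 subtypes and fell in 1, and without P0 replicate 1 rose in 10 of 15 and fell in none. In CapFb2b it went from at most 7.05 CPM in the embryo to 18.0 and 7.54 CPM at P0 and 310 and 323 CPM at 4 weeks (4.67 ± 0.21, adjusted p = 4.5e-08). In CapFb2a it went from 36.7 and 4.96 CPM to 427 and 516 CPM (4.41 ± 0.51, adjusted p = 0.00023). The P0 libraries of both subtypes were far apart, and without P0 replicate 1 the estimates were 5.49 and 6.59, and without P0 replicate 2 that in CapFb2a was 3.72. In EnA it rose from 119.6 and 101.4 CPM to 415 and 510 CPM (1.97 ± 0.23, adjusted p = 4.9e-05), below which the E16.5 libraries stood at 33.4 and 48.0 CPM. The fall in MedFb1a, from 18.97 and 1.83 CPM to 0.971 and 0 CPM, rested on P0 replicate 1: it had an adjusted p of 0.029 (edgeR) with all libraries and did not pass without that library (-1.99), without either 4-week library or with DESeq2. In EnC, Col4a1 was 2633 and 2453 CPM at P0 and 2057 and 1928 CPM at 4 weeks (-0.41 ± 0.08, adjusted p = 0.0085), and did not pass without 4-week replicate 2 (-0.38). In MedFb2a, where Col4a1 went from 1719 and 2012 CPM to 1147 and 1004 CPM, the fall passed (-0.81 ± 0.09, adjusted p = 7.6e-06).

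The multiplexins Col15a1 and Col18a1, both proteoglycans of basement membrane zones, moved apart. Col15a1 rose in 13 of 17 subtypes and in 11 of 11 of the fibroblasts, and without P0 replicate 1 in 14 of 17. In CapFb2a it held 1.24 and 3.01 CPM at E12.5 and E13.5, 56.4 and 52.9 CPM at E16.5, 135.4 and 114.7 CPM at P0 and 1043 and 901 CPM at 4 weeks (2.97 ± 0.14, adjusted p = 5.2e-07). Each age lay above the one before without overlap. In MedFb1b the step was from 1064 CPM in both P0 libraries to 2372 and 2239 CPM (1.09 ± 0.06, adjusted p = 6e-09). In EnVL, Col15a1 fell from 431 and 395 CPM at E16.5 to 294 and 285 CPM at P0 and then rose to 984 and 821 CPM (1.60 ± 0.14, adjusted p = 3.5e-05).

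Col18a1, whose C-terminal fragment is endostatin, rose in MedFb2a and VSM and fell in 6 subtypes, or 5 without P0 replicate 1, among them all 3 endothelial ones. In EnC it fell at each age, from 541 CPM at E12.5 and 477 CPM at E13.5 to 186 and 191.4 CPM at E16.5, 93.8 and 110 CPM at P0 and 11.842 and 13.4999 CPM at 4 weeks (-3.07 ± 0.17, adjusted p = 2.1e-05). In EnVL it went from 179.4 and 175.9 CPM at P0 to 15.9 and 8.44 CPM (-3.86 ± 0.24, adjusted p = 3.4e-06), and in EnA from 511 and 624.9 CPM to 176.5 and 122.1 CPM (-2.02 ± 0.21, adjusted p = 1.4e-05). In each endothelial subtype both 4-week libraries lay below both P0 libraries. Pc fell likewise, from 63.0 and 55.9 CPM to 6.34 and 10.3 CPM (-3.05 ± 0.20, adjusted p = 4.3e-07).

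Beaded filament collagens moved both ways, with 31 pairs higher, 28 lower and 56 not passing, and 26, 28 and 59 without P0 replicate 1. Of all gene and subtype pairs 13.7% were higher and 13.9% lower, and 13.1% and 13.4% without that library. Col6a1 and Col6a2, 2 of the 3 main chains of type VI collagen, rose in 6 subtypes each and fell in 1 each, where without P0 replicate 1 Col6a1 rose in 5 and Col6a2 in 3. Col6a3 rose in 3 and fell in 3 in both fits. Col6a5, a chain that can stand in for Col6a3, rose in 8 subtypes and fell in Pc, with or without P0 replicate 1. In MedFb2a it had no UMI at E13.5, 75.5 and 62.1 CPM at E16.5, 162.7 and 176.8 CPM at P0 and 326 and 338 CPM at 4 weeks (0.95 ± 0.09, adjusted p = 2.2e-06). In Pc it went from 19.98 and 31.8 CPM to 8.87 and 6.51 CPM (-1.96 ± 0.31, adjusted p = 0.00051). Col26a1, which is grouped with the beaded filament collagens and whose role is less well known, fell in 15 of 17 subtypes and in 11 of 11 of the fibroblasts, with or without P0 replicate 1. In CapFb1b it held 284 and 281 CPM at E12.5 and E13.5, 113.2 to 135.6 CPM at E16.5 and P0 and 13.7 and 9.86 CPM at 4 weeks (-3.52 ± 0.14, adjusted p = 2.3e-09). In MedFb1b, its top subtype, it fell from 222 and 211 CPM to 54.01 and 42.9 CPM (-2.19 ± 0.10, adjusted p = 5.2e-10).

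FACITs fell in 58 pairs and rose in 7 of 106, and in 32 and 12 of 92 without P0 replicate 1. Of all gene and subtype pairs 13.9% fell and 13.7% rose, and 13.4% and 13.1% without that library. The FACIT class includes the cartilage collagens Col9a1, Col9a2 and Col9a3. Col12a1 and Col14a1, which bind fibres of type I collagen, went opposite ways. Col12a1 fell in 10 of 16 subtypes, or 9 without P0 replicate 1, in Pc from 55.5 and 38.5 CPM to 2.96 and 1.63 CPM (-4.44 ± 0.32, adjusted p = 1.1e-06). Col14a1 rose in 6 subtypes and fell in 2, and without P0 replicate 1 rose in 10 and fell in none. In CapFb1b it had 1.73 and 3.64 CPM at E12.5 and E13.5, 136.6 and 137.9 CPM at E16.5, 219 and 138.6 CPM at P0 and 632 and 703 CPM at 4 weeks (1.89 ± 0.15, adjusted p = 1.2e-06). Against the same shares of all pairs, transmembrane collagens fell in 23 of 53 pairs and rose in 1, and in 16 of 46 and none without P0 replicate 1. Of these, Col25a1, named for its binding to amyloid, fell in 9 of 15 subtypes, Col23a1 in 7 of 16 and Col17a1, a hemidesmosome protein of epithelium, in 4 of 8, and without P0 replicate 1 in 7, 5 and 3. In MedFb1a, Col25a1 went from 93.9 CPM at E12.5 and 44.9 CPM at E13.5 to 10.9 and 7.31 CPM at P0 and no UMI at 4 weeks, at least 6.53-fold lower against a floor of 3 UMIs over the group. Col7a1 passed in 3 of 9 subtypes, higher in each, and Col10a1 had too few counts for a test in any.

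Among the collagens of cartilage, Col2a1 and its partners Col9a1, Col9a3 and Col11a2 were 21.7 to 56.3 times higher in 1 library at birth than in the other. Over all cells, Col2a1 stood at 192.6 CPM in P0 replicate 1 and 3.42 CPM in P0 replicate 2, a ratio of 56.3. Col9a1 stood at 37.3 and 1.32 CPM, Col9a3 at 58.7 and 2.34 CPM and Col11a2 at 21.2 and 0.977 CPM. The gap was smaller for Col9a2, at 50.6 and 10.49 CPM (a ratio of 4.82), and for Col11a1, at 82.6 and 12.7 CPM (6.53), where Col11a1 had 13.1 and 14.5 CPM at E16.5. All 8 cartilage markers outside the collagens were also higher there, at ratios of 4.84 to 63.1, with the proteoglycan Acan at 19.8 against 0.947 CPM and Ucma at 20.2 against 0.474 CPM. In P0 replicate 1, 27 of 4690 cells with over 50 Col2a1 UMIs each, spread over 14 subtype labels, held 64.9% of its Col2a1 UMIs, and the level without them was still 67.6 CPM. By subtype it ran from 52.5 CPM in CapFb1c to 1604 CPM in NC, against 0 to 16.4 CPM in replicate 2. At E12.5, Col2a1 stood at 59.4 CPM with no cell over 50 UMIs, at E13.5 at 8.66 CPM, and at E16.5 and 4 weeks at no more than 0.210 CPM.

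**Figure D4:**
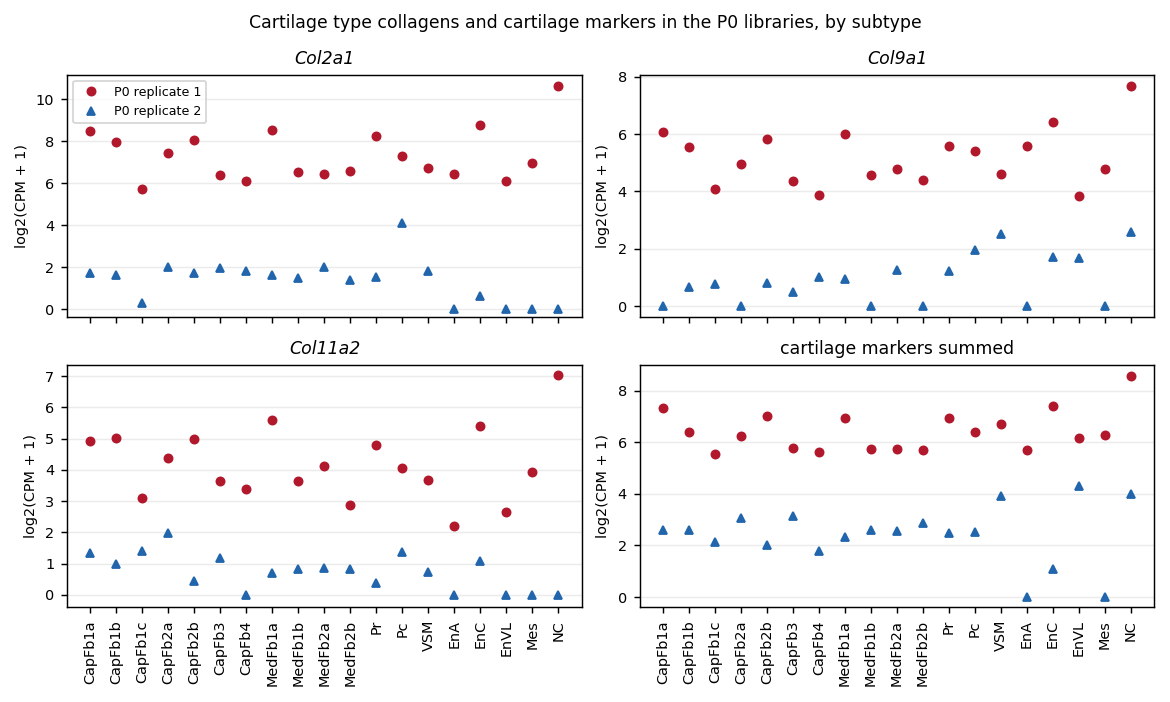
Level of Col2a1, Col9a1, Col11a2 and the summed cartilage markers as log2(CPM + 1) (y axis) in the 19 subtypes (x axis) of P0 replicate 1 and P0 replicate 2 of the age series. Replicate 1 lies above replicate 2 for Col2a1 in the subtypes shown, from 52.5 CPM in CapFb1c to 1604 CPM in NC.

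Fewer calls on the first 4 were made without that library. At 4 weeks Col2a1 was lower in 10 of 16 subtypes, Col9a1 in 11 of 16, Col9a3 in 11 of 15 and Col11a2 in 10 of 14. Without P0 replicate 1 the counts were 5 of 10, 3 of 14, 1 of 7 and 1 of 2. Col9a2 was lower in 14 of 17 and, without the library, in 12 of 16, and the counts of Col11a1 are given above. In CapFb1a, Col2a1 was 358 and 2.31 CPM at P0 and 4.72 and 0 CPM at 4 weeks, with a log2 fold change of -6.71 ± 1.72 (adjusted p = 0.0084) and of -0.48 without the library, which did not pass. Col9a1 had 152 UMIs there in P0 replicate 1 and none in P0 replicate 2 or at 4 weeks, so it was at least 42.5-fold lower against a floor of 3 UMIs over the group with the library and had nothing to compare without it. The same library moved Col1a1 in EnA, at 1116 and 32.7 CPM at P0 and 60.0 and 45.5 CPM at 4 weeks: -3.50 ± 0.81 (adjusted p = 0.011) with it and 0.59 without it. Dcn stood at 816 and 29.4 CPM in these 2 P0 libraries of EnA. In the bulk NETS libraries of both ages, no read of Col2a1 was counted.

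From E16.5 to P0, collagens were called higher more often than lower. Of 591 pairs 207 passed and 384 did not, 183 higher and 24 lower (30.96% and 4.06%, where all pairs gave 6.63% and 5.99%), with a median log2 fold change of 0.60. Without P0 replicate 1, 170 of 542 passed, 24.9% higher and 6.46% lower, against 7.16% and 6.46% of all pairs, with a median of 0.30. The count was 86 without E16.5 replicate 1 and 116 without E16.5 replicate 2. These tests share the P0 libraries with those above. Col15a1 rose in 10 of 17 subtypes and fell in EnA and EnVL, Col27a1, a fibrillar collagen, rose in 10 of 16, and Col3a1 in 9 of 17, and without P0 replicate 1 in 11, 9 and 6. Col12a1 fell in 6 of 16, or 7 without it. With all libraries, 24 of 37 collagens rose and 1 fell in MedFb2a, where 19.1% of all its genes changed. In CapFb4, 5 rose and 6 fell of 32 (median -0.13, with 13.51% of all genes changed). In CapFb3 none of 36 passed, where only 0.482% of all its genes changed. Of these 36, 14 had an unadjusted p under 0.05 (edgeR), and DESeq2 called 3. Over all 5 ages, 346 of 400 pairs in the 11 subtypes with all 8 libraries changed (86.5%, and 56.7% of all pairs), or 336 of 367 (91.6%, and 63% of all pairs) without P0 replicate 1, with 37 of 38 in CapFb1a (68.9% of all its genes) and in CapFb2b (64.0%) and 24 of 39 in VSM (48.99%). E12.5 and E13.5 have 1 library each and were taken to vary like the other ages.

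The newborn libraries asked whether the loss of 1 copy of Tbx1 and Crkl changed collagen levels. Tbx1, a transcription factor of the pharyngeal region, had 13, 6 and 19 UMIs (1.79, 0.441 and 0.605 CPM) in the WT libraries and 0, 0 and 8 (0, 0 and 0.872 CPM) in the Tbx1+/- Crkl+/- libraries, so that the groups overlapped, and Crkl, an adapter protein, lay at 18.4 to 25.1 CPM and 23.6 to 26.9 CPM. None of 328 collagen and subtype pairs in 18 subtypes passed with edgeR or DESeq2 (0.0481% of all pairs did with edgeR), and 46 had an unadjusted p under 0.05. In the 5 TEC subtypes 32 of these were higher and none lower of 98 pairs (median log2 fold change 0.72), where 4.24% of all pairs there were higher and 3.12% lower at that p. In the other 13 subtypes 6 were higher and 8 lower of 230 (median -0.14), where 3.89% and 2.5% of all pairs were. The smallest adjusted p (edgeR) was 0.0549. Col11a1 came closest to a difference: in CapFb1a it held 24.5, 15.8 and 26.1 CPM in WT and 68.6, 47.6 and 125.4 CPM in Tbx1+/- Crkl+/- mice, and in CapFb1b 19.5, 21.4 and 19.3 CPM and 74.7, 41.9 and 57.7 CPM. The groups did not overlap in either subtype, and both pairs passed with the replicate number as a block (1.89 ± 0.38 and 1.46 ± 0.33) and with no filter on low counts. Replicate numbers did not pair these libraries, so the block adds no support. Col11a1 was also high in P0 replicate 1 of the age series, along with cartilage markers. The part of cartilage RNA in the newborn libraries was not tested. Leaving out WT replicate 1 gave 3 calls and leaving out Tbx1+/- Crkl+/- replicate 2 gave 2.

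The summed level of all collagens is given as a description, since 3 libraries against 3 cannot give an exact p below 0.1. Its mean in Tbx1+/- Crkl+/- mice lay below that of WT in 12 of 12 NETS subtypes, at ratios that reached 0.985 in VSM and 0.946 in EnVL, and the groups did not overlap in 6. In 5 of 5 TEC subtypes the mean lay above, and the groups did not overlap in 1. All subtypes come from the same libraries, so they are not separate observations. Median UMIs per cell were 2577, 3631 and 4686 in the WT libraries and 2551, 2391 and 2506 in the Tbx1+/- Crkl+/- libraries. The part of this depth was not tested. In CapFb4 the collagen sum was 42745, 52315 and 52130 CPM in WT and 35135, 38795 and 32299 CPM in Tbx1+/- Crkl+/- mice, a ratio of 0.722. Dcn in the same cells was 9590 ± 1635 and 5916 ± 1213 CPM. In proliferating TEC (PrTEC) the sum was 2116, 1541 and 1335 CPM in WT and 2177, 3043 and 2736 CPM, a ratio of 1.59, and Dcn was 229 ± 59 and 333 ± 143.04 CPM. Thymocytes, which do not make a collagen matrix, showed 3184 ± 196 and 3392 ± 1034 CPM of collagen UMIs, above the WT mean of 4 of the 5 TEC subtypes, so the TEC levels cannot be told apart from RNA of other cells. The part of fibroblast RNA in these sums was not tested.

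In the bulk libraries, reads fall along the whole transcript, so levels are compared between populations and not between genes. Fewer cells of a type in a sort and less RNA per cell cannot be told apart in such samples. All collagens together held 60699 ± 17086 CPM in gp38+CD26+ cells at P0, 47032 ± 5448 CPM in gp38+CD26- cells, 15458 ± 2466 CPM in Ly51+gp38- cells and 4726 ± 2298 CPM in CD31+ cells (n = 6 each). At 4 weeks they held 51594 ± 3342 CPM (n = 5), 30130 ± 2631 CPM, 8555 ± 785 CPM and 3247 ± 464 CPM. TECs held much less, with 1063 ± 124.4 CPM in cTEC and 989 ± 147 CPM in mTEC at P0. At both ages gp38+CD26- cells had the highest mean of more collagens than any other single gate. They led for 13 at P0, where mTEC led for 12. At 4 weeks they led for 12, and mTEC, mTEChi and mTEClo, which divide the medullary cells, for 5, 5 and 7. Such a lead could rest on a low level, as for Col9a3 at 2.07 CPM in mTEC at P0.

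Each NETS sort was set against the average of the remaining 3 sorts, with libraries taken as unpaired. CD31+ cells at 4 weeks were higher in 3 and lower in 22 of 32 collagens (32.2% of all genes changed), and the 3 were Col4a1 (1.57 ± 0.22), Col15a1 (1.52 ± 0.23) and Col4a2 (1.39 ± 0.27). At P0 they were higher in 4 and lower in 24 of 33 (31.8% of all genes), and the 4 were Col4a1, Col4a2, Col18a1 and Col13a1. Col13a1 had 576 reads over the CD31+ libraries, 29 over the gp38+CD26+ libraries and at most 2 over those of each other sort, so it entered the test through the CD31+ cells and its call is a description. gp38+CD26- cells were higher in 21 and lower in none of 32 at 4 weeks (16.9% of all genes), and higher in 22 and lower in none of 33 at P0 (10.8%). Col26a1 and Col6a5 are among the 21, but Col26a1 had no read in the CD31+ and Ly51+gp38- libraries at 4 weeks and Col6a5 none in the CD31+ libraries, so no fold is given. gp38+CD26+ cells were higher in 19 and lower in 3 at 4 weeks (21.4%), with Col4a1 and Col4a2 among the 3, and higher in 17 and lower in 3 at P0 (17.2%). Ly51+gp38- cells were higher in 11 and lower in 2, Col15a1 and Col8a1, at 4 weeks (25%), and higher in 9 and lower in 1 at P0 (13.4%). Each comparison takes the other populations as its reference, so a gene high in 1 population lowers the rest.

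From P0 to 4 weeks, gp38+CD26- cells changed in 15 of 29 collagens, 5 higher and 10 lower (24.3% of all genes changed), gp38+CD26+ cells in 12 of 29, 4 higher and 8 lower (13.2%), and Ly51+gp38- cells in 9 of 27, 2 higher and 7 lower (11.9%). CD31+ cells changed in 1 of 12 (5.09%). The counts of gp38+ cells include genes with no read at 1 age. These are Col11a1 in gp38+CD26- cells and Col8a1 and Col17a1 in gp38+CD26+ cells, and their calls are a description. The median log2 fold changes were -0.37, -0.46, -0.69 and 0.46, with medians of all genes of -0.09, -0.06, -0.05 and -0.07. Dcn rose over the same interval from 7550 to 18814 CPM in gp38+CD26- cells and from 12534 to 20933 CPM in gp38+CD26+ cells, and the pericyte marker Rgs5 from 32174 to 93920 CPM in Ly51+gp38- cells, and their part was not tested.

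At 4 weeks Col1a1, Col1a2, Col3a1, Col4a3, Col5a1, Col8a1 and Col14a1 were highest in gp38+CD26+ cells, without overlap with the population next in mean. Of these, Col8a1 had no read in any of the 6 P0 libraries of gp38+CD26+ cells. It had 75.8, 268 and 318 CPM (lowest, median and highest) at 4 weeks, at least 4878-fold higher against a floor of 3 reads over the P0 group. It entered that test through the 4-week libraries, so the call is a description. The bound holds for these sorted libraries alone. In the age series Col8a1 had UMIs at P0 in CapFb2a and CapFb2b, where it rose by 4.41 and 4.67 on the log2 scale. In gp38+CD26- cells it stayed at 0 to 8.90 CPM at P0 and 1.39 to 21.8 CPM at 4 weeks, so the 2 populations did not overlap at 4 weeks. Col14a1 had 476, 577 and 667 CPM in gp38+CD26+ cells at P0 and 926, 963 and 1087 CPM at 4 weeks (0.85 ± 0.12, edgeR adjusted p = 4.7e-04), while in gp38+CD26- cells it had 118.8, 149.8 and 222 CPM and then 65.8, 94.9 and 199 CPM. With the shallow library kept, the rise of Col14a1 was 0.64 and did not pass. Of 33 collagens, 5 differed in their age change between the 2 populations (4.99% of all genes did): Col8a1 and Col14a1, which rose more in gp38+CD26+ cells, and Col6a6, Col5a3 and Col6a3, whose change there was more negative. The difference was 1.14 ± 0.31 for Col14a1 (adjusted p = 0.031), -2.05 ± 0.41 for Col6a6 (adjusted p = 0.0044) and -1.50 ± 0.34 for Col5a3 (adjusted p = 0.01). That of Col14a1 did not pass with the shallow library kept (0.89) or without 4-week replicate 5 (1.13) or 6 (1.09), and that of Col6a3 (-0.97 ± 0.26, adjusted p = 0.031) not without replicate 4 (-0.86) or 6 (-0.92) or with every library (-1.16). For Col8a1 the fitted difference depends on the prior count, since P0 is at 0. Its place among the 5 is therefore a description.

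**Figure D5:**
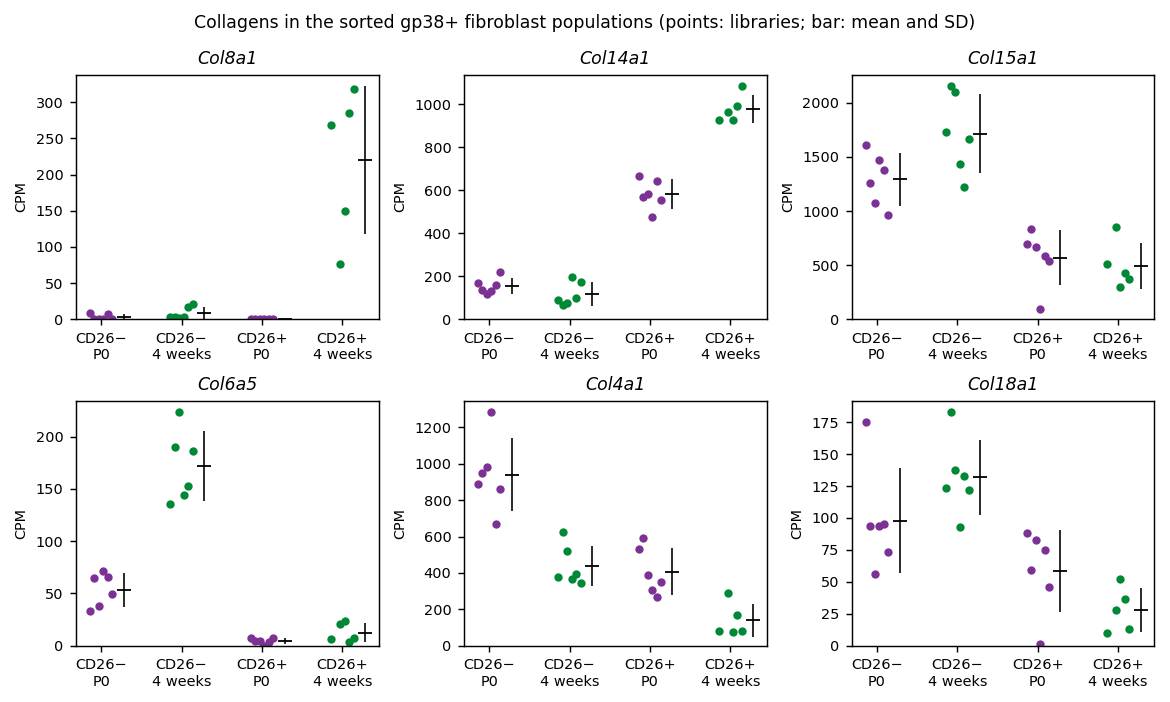
Levels of collagens that differ between the gp38+CD26+ and gp38+CD26- populations, as CPM in sorted cells at P0 and 4 weeks (points are libraries, bars mean and SD, and the shallow library is left out). Col8a1 is at 0 in all gp38+CD26+ libraries at P0 and between 75.8 and 318 CPM at 4 weeks.

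Other changes of the sorted fibroblasts covered fibres, basement membranes and filaments. In gp38+CD26- cells Col6a5 went from 32.7, 57.2 and 71.7 CPM at P0 to 135.8, 169.3 and 223 CPM at 4 weeks without overlap (1.82 ± 0.22, adjusted p = 4.1e-05). Col26a1 fell there (-2.53 ± 0.37, adjusted p = 1.8e-04), from 100.9, 147.2 and 202 CPM to 7.60, 18.7 and 40.7 CPM. Col11a1 had no read in these cells at 4 weeks, at least 454-fold lower. It entered the test through the P0 libraries, so its call is a description. Col5a1 fell by 1.46 ± 0.15 on the log2 scale (adjusted p = 7.8e-06) and Col1a1 by 0.80 ± 0.15 (adjusted p = 0.0011). Col4a5 rose in gp38+CD26- cells (1.85 ± 0.33, adjusted p = 9e-04), in gp38+CD26+ cells (2.20 ± 0.50, adjusted p = 0.011) and in Ly51+gp38- cells (1.84 ± 0.26, adjusted p = 2.9e-04). In gp38+CD26+ cells Col4a1 fell from 267, 371 and 593 CPM to 74.5, 82.8 and 288 CPM (-1.43 ± 0.37, adjusted p = 0.024), a call that was lost without replicate 1 (-1.26), 4 (-1.27) or 6 (-1.29). Col12a1 fell in gp38+CD26- cells (-2.70 ± 0.77, adjusted p = 0.019) with edgeR but not with DESeq2.

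Col18a1 moved in opposite directions in the vascular sorts. In CD31+ cells it had 145, 296 and 363 CPM at P0 and 5.87, 50.02 and 56.7 CPM at 4 weeks (-2.64 ± 0.43, adjusted p = 0.0022). In Ly51+gp38- cells it had 32.9, 63.2 and 94.5 CPM and then 122.9, 160.5 and 173.4 CPM (1.45 ± 0.23, adjusted p = 7.3e-04). Neither population overlapped between the ages. The Ly51+gp38- gate holds both Pc and VSM, and in the single-cell data Col18a1 fell in Pc and rose in VSM.

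The 2 gp38+ populations were compared at each age, and more collagens and more of all genes passed at 4 weeks than at P0. At P0, 2 of 33 collagens differed (2.14% of all genes), both higher in gp38+CD26- cells: Col6a4 and Col25a1. Col6a4 had at most 61 reads in a gp38+CD26+ library, with 3 of 6 at 0, and 7104 over the 6 gp38+CD26- libraries, and Col25a1 had 1 read and 260 reads over the libraries of each. Both entered the test through populations where they were high, so the calls are a description and no fold is given. At 4 weeks 7 of 32 differed (7.81%). Col8a1 (4.78 ± 1.14, adjusted p = 0.0092) and Col14a1 (3.13 ± 0.91, adjusted p = 0.035) were higher in gp38+CD26+ cells, the latter a call lost with DESeq2, with every library kept (2.88) or without replicate 3, 4, 5 or 6 (3.07 to 3.15). Col4a1 (-1.59 ± 0.32), Col4a2 (-1.53 ± 0.37, and -2.17 without replicate 3), Col15a1 (-1.75 ± 0.32), Col18a1 (-2.19 ± 0.44) and Col6a5 (-3.73 ± 0.76) were higher in gp38+CD26- cells. At 4 weeks Col15a1 ran from 303 to 850 CPM in gp38+CD26+ cells and from 1218 to 2158 CPM in gp38+CD26- cells. Col1a1, Col1a2 and Col3a1 did not pass, though their 4-week libraries did not overlap. Col1a1 had 23502 ± 2729 CPM in gp38+CD26+ cells and 8872 ± 1009 CPM in gp38+CD26- cells. This contrast shares its fit and spread with the other NETS sorts, and Col1a1 had 96 reads over the 6 CD31+ libraries. The part of that shared spread was not tested.

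Among TECs, cTEC changed in 8 of 22 collagens from P0 to 4 weeks, 4 in each direction (22.3% of all genes), and mTEC in 3 of 33 (5.99%). In cTEC the genes called higher were Col1a1, Col1a2, Col3a1 and Col15a1. Col1a1, with 3 reads over the 6 P0 libraries, and Col15a1, with 38 reads and 4 libraries at 0, entered the test through the 4-week libraries, so their calls are a description. Col1a1 had at most 1 read per library at P0 and 14.7, 53.8 and 724 CPM at 4 weeks, where replicate 6 was far above the rest. Dcn rose in the same libraries from a mean of 62.6 to 663 CPM and the haematopoietic Ptprc from 2.0 to 166 CPM, and their part was not tested. In mTEC, Col6a1 (1.55 ± 0.32) and Col6a2 (2.31 ± 0.40) rose and Col19a1 fell. Between cTEC and mTEC, 18 of 31 collagens differed at P0, 6 higher and 12 lower in cTEC (43.5% of all genes), and 15 of 39 at 4 weeks, 3 higher and 12 lower (33.2%).

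At 4 weeks 12 of 39 collagens differed between mTEChi and mTEClo cells (18.5% of all genes), 7 higher and 5 lower in mTEChi. The lower ones included Col6a1, Col6a2 and Col4a1. Col6a1 had 4.96, 6.997 and 52.9 CPM in mTEChi and 225, 466 and 629 CPM in mTEClo (-4.55 ± 0.58, adjusted p = 7.7e-06), Col6a2 2.99, 6.40 and 14.7 CPM and 202, 262 and 435 CPM (-4.79 ± 0.41, adjusted p = 3.5e-08), and Col4a1 25.1, 46.3 and 57.8 CPM and 212, 282 and 371 CPM (-2.49 ± 0.28, adjusted p = 1.2e-06). The populations did not overlap in any of these. Col17a1, which anchors epithelial cells, was higher in mTEChi (2.72 ± 0.88, adjusted p = 0.032), at 44.9, 77.8 and 87.2 CPM against 0, 11.1 and 31.1 CPM. Medullary TECs of the hi fraction are known for transcribing many genes of other tissues.

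The enzymes, chaperones and receptors that handle collagen were followed as a list of 43 genes, of which 42 could be tested. Its group of hydroxylases and glycosyltransferases also counts Crtap, P3h4 and Ppib, which are not such enzymes themselves. From P0 to 4 weeks 218 of 652 gene and subtype pairs rose and 145 fell (13.7% and 13.9% of all pairs did), and 216 and 118 of 644 without P0 replicate 1. Hydroxylases and glycosyltransferases, which modify the chains in the endoplasmic reticulum, fell more often than they rose (45 higher and 96 lower of 249, and 44 and 74 of 249 without P0 replicate 1). Crosslinking enzymes (37 higher, 5 lower and 32 not passing), propeptide proteases (44, 12 and 45) and receptors (53, 7 and 49) rose more often than they fell, and without P0 replicate 1 the higher and lower counts were 38 and 6, 46 and 11, and 48 and 6. Chaperones went both ways (39 higher, 25 lower and 55 not passing, and 40 and 21 without the library). Fkbp10, a chaperone of procollagen folding, fell in 17 of 17 subtypes, by 1.59 ± 0.11 on the log2 scale in CapFb4 and 0.62 ± 0.08 in CapFb1b. P4ha1, a prolyl hydroxylase subunit that acts on the same chains, rose in 16 of 17, by 1.13 ± 0.17 in EnC. Ddr2, a receptor tyrosine kinase that binds fibrillar collagen, rose in 14 of 17 and in 11 of 11 of the fibroblasts, by 1.66 ± 0.08 in MedFb1b and 1.36 ± 0.09 in CapFb4. Leaving out 1 library at a time gave 15 to 17 subtypes for Fkbp10, 11 to 16 for P4ha1 and 13 to 14 for Ddr2. In the bulk populations 26 rose and 23 fell of 221, where 5.09% to 24.3% of all genes changed by population.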

How the data were processed

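The single-cell data were deposited as raw UMI counts per gene and cell, and the bulk data as raw read counts per gene. These deposited counts carry no normalization. The submitters' processing notes name Cell Ranger 3.1.0, STAR 2.5.3a and HTSeq, and the builds mm10 and GRCh38, without saying which step used which. Subtype labels are those of the authors, who clustered the cells and removed doublets before deposit.

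For tests, UMIs were summed per subtype and library with at least 20 cells, and libraries were the replicates. edgeR 4.0.16 (R 4.3.3) was run over all genes with filterByExpr, TMM and the quasi-likelihood test. Benjamini-Hochberg adjusted p-values under 0.05 were called. SEs are the log2 fold change divided by the square root of F. Ages shared a fit within a subtype, and each bulk contrast was fitted as described. Alternatives were DESeq2 1.42.0, RLE factors, no filter, 50 cells, a replicate block, the label prefixes TXCK or DFCK as a term and leaving out libraries. Bulk reads not in genes (7.81 to 29.4%) and the library under 1000000 gene counts were left out. Named collagens are 26 fixed ones and, per comparison, up to 6 in each direction with the largest change, others being marked. Members, lists and rules were chosen with earlier results of these data known. Fold bounds against a group at 0 use a floor of 3 counts over the group, which covers counting error only. The tests were checked on simulated counts. Of 2-fold changes, 57.6% were recovered between P0 and 4 weeks in CapFb1a and 45.6% between genotypes in CapFb1a. Between the ages in bulk gp38+CD26- cells 21.9% were recovered. Of 4-fold changes the shares were 90%, 98.8% and 52.7%. A gene that did not pass may thus still have changed. Levels and figures used Python 3.11.15, numpy 2.4.6, pandas 2.3.3 and matplotlib 3.10.9. Promoters are from RefSeq (GRCm38.p6). No columns of unlisted samples were used.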

Additional observations from a re-analysis of the deposited data

Results flagged for a closer look

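Single libraries far from the others were looked for in 44 sets of bulk values (Dixon's test at 95%). Each set was a gene, or the sum of all collagens, in 1 group of libraries. Of these sets 4 had one, where chance gives about 1 in 20 for separate sets, but the sets share libraries. Col18a1 was 175.2 CPM in gp38+CD26- replicate 1 at P0 and 5.87 CPM in CD31+ replicate 1 at 4 weeks. In cTEC at 4 weeks, replicate 6 held 724 CPM of Col1a1 and 2626 CPM of all collagens, a sum that includes Col1a1.

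The age change differed between gp38+CD26+ and gp38+CD26- cells by a test of the difference itself (log2, edgeR) for Col14a1 (1.14), Col8a1 (12.70, a description that depends on the prior count because P0 is at 0), Col5a3 (-1.50), Col6a3 (-0.97) and Col6a6 (-2.05).

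Among the gene and subtype pairs followed singly, changes from P0 to 4 weeks ran in opposite directions between subtypes in 5 genes. By their counts of calls other collagens did so too, such as Col4a1, Col6a3 and Col18a1. The difference between the subtypes was not tested. For Col1a1 the log2 fold change was -1.04 in CapFb2a, -0.74 in CapFb4, -0.71 in CapFb2b and -0.76 in CapFb3, but 0.50 in CapFb1b. For Col3a1 it was -0.48 in CapFb4, 0.56 in CapFb1b and 0.64 in CapFb1a. For Col5a3 it was 2.01 in MedFb1b, 2.09 in MedFb1a and -1.16 in CapFb4. For Col6a5 it was 0.95 in MedFb2a, 1.54 in MedFb1b and -1.96 in Pc. For Col8a1 it was 4.41 in CapFb2a, 4.67 in CapFb2b, 1.97 in EnA and 2.89 in EnC (without P0 replicate 1, 6.59 in CapFb2a, 5.49 in CapFb2b and 3.56 in EnC), and -4.30 in MedFb1a, where the fall rests on P0 replicate 1.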

How the results depend on the processing

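Of the values recomputed for single genes, 877 kept their direction and side of the threshold, 31 no longer passed and 2 reversed, and of the counts and levels 171 stayed within the limits set and 22 moved. Without P0 replicate 1, the fitted log2 fold change of Col9a1 in CapFb1a was 0.00 because neither group then held a UMI (its other fitted values, down to -11.10 over single libraries left out, depend on the prior count), and that of Col1a1 in EnA was 0.59 (-4.46 to 0.59), and the cause was not tested. From E16.5 to P0, DESeq2 called 23.2% of the tested pairs and the fit with no filter 44.2%, where the reported test called 35.0%. With at least 50 cells the test over all ages called 221 pairs in fewer subtypes. Between genotypes, no filter gave 5 calls and the replicate block 2. In bulk, DESeq2 called 3 collagens in CD31+ cells and 5 in mTEC between the ages, 5 between the gp38+ populations at P0 and 8 for the difference of their age changes. Keeping the shallow library gave 7 calls for gp38+CD26+ cells between the ages and 3 for that difference. With the 4-week libraries alone, the same subtype led for 13 collagens, where NC, without a library of at least 20 cells, could lead for none. Total collagen in these libraries was 41966 CPM in CapFb1a, 29425 CPM in CapFb1b, 29683 CPM in MedFb1a and 26646 CPM in MedFb1b.

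Leaving out 1 library at a time gave 217 to 377 pairs from P0 to 4 weeks, 14.7% to 49.1% of the tested pairs from E16.5 to P0, 304 to 374 over all ages and 0 to 3 between genotypes. For the bulk comparisons that use gp38+CD26+ cells at 4 weeks it gave 9 to 15 calls between the ages, 6 to 8 between the gp38+ populations and 3 to 6 for the difference, and against the other NETS populations 25 to 26 for CD31+, 18 to 20 for gp38+CD26-, 19 to 21 for gp38+CD26+ and 12 to 15 for Ly51+gp38- cells.

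Replicate numbers did not pair the single-cell libraries: deviations of same-numbered libraries correlated at -0.124 (E16.5 and P0), 0.0493 (E16.5 and 4 weeks) and -0.292 (P0 and 4 weeks), and at 0.228, -0.0423 and -0.616 between the genotypes, where differently numbered littermate libraries reached 0.717 (WT 3 with Tbx1+/- Crkl+/- 2) and 0.590 (WT 1 with 3). Pairing was not checked in the bulk set, where the numbers in the titles step evenly from sort to sort with the same prefix. Comparisons between sorts took libraries as unpaired and ignore any such pairing. With the replicate block, 363 pairs were called from P0 to 4 weeks, 239 from E16.5 to P0 and 354 over all ages. With the numbers of the P0 libraries crossed, an alternative chosen after seeing the data, the counts were 363, 254 and 362. The fits without P0 replicate 1 were singled out after seeing the data. Limits are 1 or 2 libraries per age, genes near 0 UMIs at P0, and subtypes clustered on the same counts.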
